A study of Mus musculus with 18 samples.

Results

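The genes described here are the 10 that carry the mouse MHC class I presentation pathway from peptide cutting to the cell surface. They were chosen by name, for their place in this pathway and with earlier results of these data known, from the 31787 gene symbols of the count table. The set comprises the heavy chains H2-K1 and H2-D1, the light chain B2m, the transporter and loading genes Tap1, Tap2 and Tapbp, the immunoproteasome subunits Psmb8, Psmb9 and Psmb10, and the regulator Nlrc5. All 10 passed the filter on low counts, as did 21050 genes in all. The RNA came from whole mouse kidney, in 18 libraries of 6 groups of 3, after unilateral ureteral obstruction (UUO, ligation of the ureter on one side) or without it. The study asked how transcription factors of the endothelial-to-mesenchymal change act on the obstructed kidney, and how tubular Myc relates to it.

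Healthy kidneys came from Cre-negative mice with floxed Twist alleles of the Cdh5-CreERT2;Twist line (- FF). The contralateral group, taken from the side opposite the ligature, and the wild-type (WT) UUO group each came from 2 mice with Cre and no floxed allele (+ ++) and 1 floxed mouse lacking Cre (- FF), again of that line. Twist cKO UUO and Snail cKO UUO kidneys were Cre-positive and floxed (+ FF), with the endothelial, tamoxifen-inducible Cdh5-CreERT2 as driver. In Myc cKO UUO kidneys (+ FF, GGT-Cre;Myc) the driver was GGT-Cre, which acts in tubular cells. Mice were 12 weeks old at the endpoint, and 11 to 12 weeks in the Myc cKO group. The Twist line, which also supplied the healthy, contralateral and WT UUO kidneys, was mixed from 3 strains (C57BL6, 129sv, Balb/c), whereas 129sv was not part of the Snail and Myc lines (C57BL6, Balb/c). The Snail and Myc knockouts therefore cannot be told apart from the change of strain mix. Nor can they be told apart from sex make-up, read from whether Ddx3y or Xist was higher. For every group of the Twist line, Ddx3y was the higher in replicate 2 only. Replicates 1 and 3 read that way among Snail cKO and again among Myc cKO kidneys. The time after ligation, the tamoxifen schedule and the MHC haplotype of the mice do not appear in the sources used here. Nor do the labels say which kidneys shared an animal, so p-values measure only the spread between these samples.

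MHC class I molecules show peptides from inside the cell to CD8 T cells and natural killer cells. Proteasomes cut proteins into peptides, the TAP transporter carries the peptides into the endoplasmic reticulum, and tapasin holds empty class I molecules beside TAP until a peptide fits. Interferon-gamma makes cells replace the constitutive catalytic proteasome subunits by the immunoproteasome subunits and raises the rest of the pathway, partly through Nlrc5, which acts at an upstream box of class I genes known as the SXY module. Tubular and endothelial cells of the kidney carry class I, and leukocytes carry far more of it.

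Of the 10 genes, 7 lie on chromosome 17 in the MHC (mm10, GENCODE M21). Psmb9, Tap1, Psmb8 and Tap2 sit next to each other within 34.3 kb (chr17:34181987-34216321), and Tap1 and Psmb9 start from opposite strands of a shared stretch and overlap by 212 bases. H2-K1 (chr17:33996017-34000347, minus strand), Tapbp (chr17:33915899-33929292) and H2-D1 (chr17:35262730-35267499) flank them. B2m lies on chromosome 2 (chr2:122147686-122153083), and Psmb10 and Nlrc5 on chromosome 8. RefSeq promoter windows (GRCm38.p6, 250 bases before to 50 after the start site) were given for 8 of the 10 genes. Tap2 and Nlrc5 had no entry.

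The upstream sequences of the heavy chains and of B2m are shown because these 3 genes, on 2 chromosomes, hold the same pair of short motifs at the same distance. Capitals mark a kappaB match in H2-K1 and H2-D1 (GGGGA followed directly by TTCCCC), an interferon response element match in B2m (GAAA, any 2 bases and GAAA again), an X2 match (TGACG), a Y match (ATTGG) and, in Psmb8, a GAS match (TTCNNNGAA). All stretches run 5′ to 3′ on the strand of the gene. H2-K1 and B2m are given as longer stretches, and H2-D1 and Psmb8 as the motif with its flanks, since an annotated transcript of each holds the stretch in its 5′ UTR.
H2-K1, chr17:34000349-34000468, minus strand: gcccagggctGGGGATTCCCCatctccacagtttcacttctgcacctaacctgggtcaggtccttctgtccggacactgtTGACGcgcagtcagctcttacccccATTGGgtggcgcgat
H2-D1, chr17:35262914-35262942, plus strand: cccagggctGGGGATTCCCCatctcctca
H2-D1, chr17:35262993-35263022, plus strand: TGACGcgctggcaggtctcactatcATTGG
B2m, chr2:122147538-122147648, plus strand: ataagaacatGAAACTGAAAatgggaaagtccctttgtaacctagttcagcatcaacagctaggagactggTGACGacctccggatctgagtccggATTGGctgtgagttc
Psmb8, chr17:34198088-34198116, plus strand: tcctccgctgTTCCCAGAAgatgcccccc

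Both strands of all 32851 windows of the table were searched. TGACG followed after exactly 20 bases by ATTGG, a spacing noticed in these sequences before it was searched for, stood in 31 windows (0.0944%) of 27 genes, among them H2-K1, H2-D1, B2m and the class Ib gene H2-M3. The 11-base kappaB match stood in 10 windows (0.0304%), and H2-K1 and H2-D1 were the genes that held both. Over the 120 bases shown for H2-K1, the matching stretch of H2-D1 was identical at 108. The interferon response element match, held by B2m among the 8 genes, stood in 3.44% of windows, and the GAS match, held by Psmb8, in 8.30%. TGACG alone was found for 5 of 8 genes and in 20.8% of windows, and ATTGG alone for 6 of 8 and in 37.4%. The windows of Tap1 and Psmb9 share 275 bases. These are matches of letters, with no measurement of binding.

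Total counts per library ranged from 52637555 to 91340782. The mitochondrial ribosomal RNAs took 44.6 to 50.3% of the counts in unobstructed and 19.2 to 34.9% in obstructed kidneys. The targeted genes served as a check of the labels. Twist1 had 180, 360 and 93 counts in WT UUO kidneys against 29, 49 and 21 after Twist cKO, and fell by 2.59 ± 0.49 (log2, SE; edgeR adjusted p = 0.0172). Snai1 had 271, 276 and 196 counts in WT UUO kidneys against 165, 126 and 191 after Snail cKO (-0.61 ± 0.38, adjusted p = 0.487). Myc had 1869, 1907 and 1782 counts in WT UUO kidneys against 1355, 1613 and 722 after Myc cKO (-0.45 ± 0.23, adjusted p = 0.217). At an adjusted p under 0.05 the fall passed for Twist1 only. For Snai1 and Myc the estimates were lower without passing, so this check does not settle the Snail and Myc cKO labels. Whole-kidney RNA includes that of cells not targeted by either Cre. Levels below are CPM, read counts scaled to library size with TMM factors. Changes were called at an adjusted p under 0.05 in edgeR's quasi-likelihood test, two-sided and adjusted by Benjamini-Hochberg over all 21050 genes.

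WT UUO kidneys were set against healthy ones, whose labels do not mention surgery. All 10 genes rose, by a median of 1.69 on the log2 scale against 0.05 over all genes tested, and in none did the 2 groups overlap. Of all genes tested 29.2% were called higher and 32.8% lay higher without overlap. The fold changes ran from 2.06-fold for B2m to 5.14-fold for Psmb8 and Nlrc5, and every call held when any 1 of the 6 libraries was left out. Healthy mice all lacked Cre, whereas some WT UUO mice carried it. Every call also held with Cre presence as a covariate. In bulk RNA, more cells of a type and more RNA per cell cannot be told apart.

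The heavy chain H2-K1 stood at 89.3, 50.2 and 106 CPM in the healthy and at 275, 276 and 202 CPM in the WT UUO libraries. It rose by 1.62 ± 0.25 (log2, SE; adjusted p = 5.18e-05). H2-D1, the second classical heavy chain, stood at 74.0, 73.8 and 109 CPM in healthy and at 314, 300 and 219 CPM in WT UUO kidneys, a rise of 1.70 ± 0.20 (3.69e-06). For both genes the lowest obstructed library lay well above the highest healthy one. B2m, the light chain without which class I does not reach the surface, stood at 152, 156 and 204 CPM in healthy and 363, 412 and 281 CPM in WT UUO kidneys. Its rise of 1.05 ± 0.20 (adjusted p = 0.000364) was the lowest estimate of the 10.

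The transporter gene Tap1 stood at 3.85, 4.40 and 9.49 CPM in healthy and at 26.1, 25.2 and 21.3 CPM in WT UUO kidneys, and rose by 2.03 ± 0.30 (adjusted p = 3.76e-05). Its partner Tap2 stood at 5.82, 4.55 and 8.67 CPM against 20.5, 21.6 and 19.4 CPM, and rose by 1.69 ± 0.17 (1.1e-06). In both, healthy replicate 3 was the highest healthy library and still below every obstructed one. Tapbp, which encodes tapasin, was the most even of the 10: 45.3, 42.4 and 48.5 CPM in healthy and 110, 112 and 107 CPM in WT UUO kidneys, a rise of 1.28 ± 0.08 (2.94e-08).

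Among the immunoproteasome subunits, Psmb8 stood at 3.54, 2.70 and 6.22 CPM in healthy and 23.1, 22.4 and 19.0 CPM in WT UUO kidneys, and rose by 2.36 ± 0.27 (adjusted p = 3.74e-06). Psmb9 stood at 1.87, 2.25 and 3.86 CPM against 7.64, 8.85 and 7.05 CPM (1.55 ± 0.31; 0.000502). Psmb10, the subunit encoded outside the MHC, stood at 7.06, 4.36 and 7.30 CPM against 20.2, 21.4 and 21.1 CPM (1.74 ± 0.17; 6.38e-07). The 3 subunits thus rose together, on 2 chromosomes. The regulator Nlrc5 stood at 2.65, 2.48 and 7.95 CPM in healthy and 22.3, 29.9 and 15.6 CPM in WT UUO kidneys, and rose by 2.36 ± 0.41 (adjusted p = 0.000193), the widest error of the 10.

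**Figure D1:**
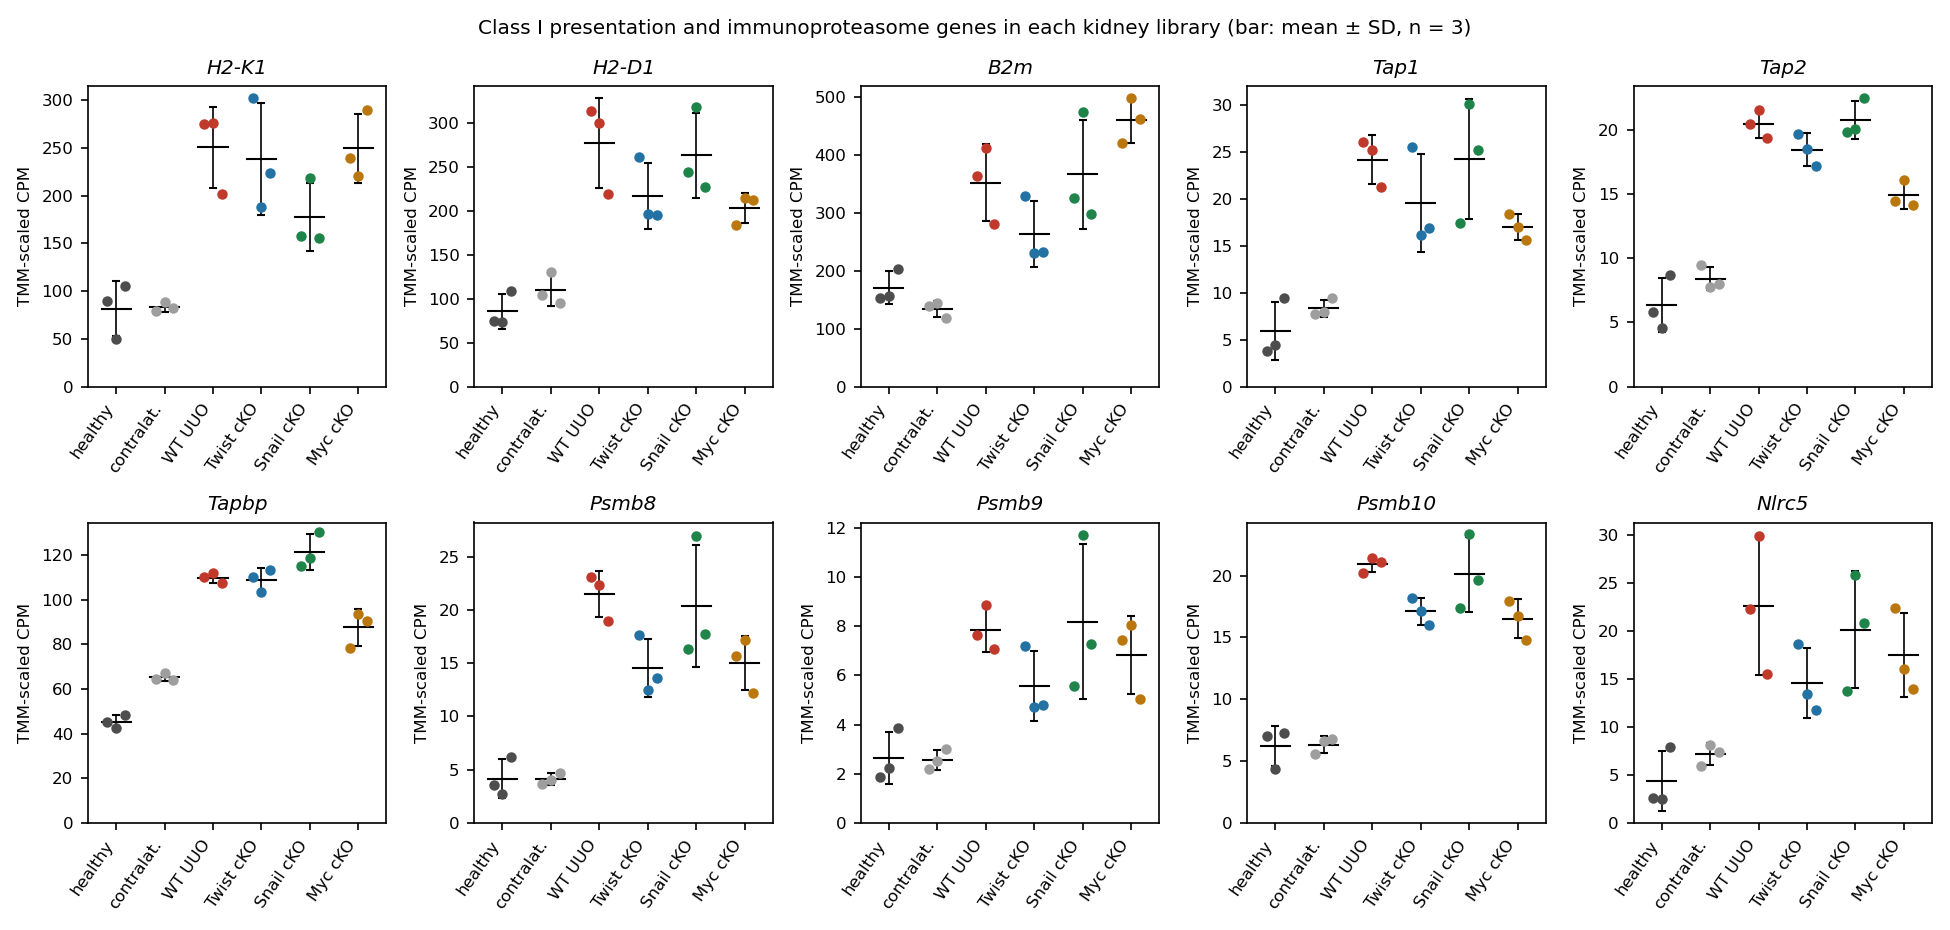
TMM-scaled CPM of the 10 genes in each of the 18 libraries, by group, on linear axes that start at 0; points are libraries and the bar with whiskers is the mean ± SD (n = 3). In every panel the 3 WT UUO libraries lie above the 3 healthy ones, and healthy replicate 3 is the highest healthy library.

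Levels can be compared between genes only per length. The length used was that of all annotated exons of a gene merged over its transcripts, and the order below depends on this choice. Per kilobase of exon, B2m was the most abundant in WT UUO kidneys (410 ± 77.2 CPM per kb, SD, n = 3). H2-D1 (108 ± 19.8) and H2-K1 (85.4 ± 14.4) followed, with libraries that overlapped, and then Tapbp (30.3 ± 0.65). Psmb10 (12.3 ± 0.36) stood above Psmb8 (6.35 ± 0.65) and Tap2 (5.41 ± 0.29), whose libraries overlapped each other, and above Tap1 (4.42 ± 0.47). At the low end were Nlrc5 (2.66 ± 0.84) and Psmb9 (2.14 ± 0.25), which overlapped. In healthy kidneys the order was the same but for 2 exchanges between neighbours that overlapped: Tap2 (1.68 ± 0.56) stood above Psmb8 (1.23 ± 0.54), and Psmb9 (0.73 ± 0.29) above Nlrc5 (0.51 ± 0.37).

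The other subunits of the 20S core did not rise with the immunoproteasome subunits. Of the 3 constitutive catalytic subunits 2 fell in WT UUO against healthy kidneys and 0 rose, with a median log2 difference of -0.57: Psmb7 by -0.91 ± 0.16 (adjusted p = 0.000159) and Psmb6 by -0.57 ± 0.14 (0.00257), while Psmb5 was at -0.52 ± 0.30 (0.161). Psmb5 was called lower with a Cre covariate (-1.11, adjusted p = 0.00747) or a sex covariate (-0.51, adjusted p = 0.0332), and with 1 library left out its estimate ran from -0.80 to -0.21 without a call. Of the 11 other subunits of the 20S core 7 fell and 0 rose (median -0.40), where 27.1% of all genes tested were called lower, among them Psma4 (-0.76 ± 0.14), Psma2 (-0.54 ± 0.14) and Psmb3 (-0.52 ± 0.13). That count was 3 without healthy replicate 2 and 4 without WT UUO replicate 3. Against contralateral kidneys 2 of the 11 fell and 0 rose (median -0.11), where 5482 of 21050 genes were called lower. The constitutive catalytic subunits fell there in 2 of 3 cases (median -0.51). In contralateral against healthy kidneys all 11 estimates were negative with 0 called (median -0.22). The fall of these 11 subunits thus depended on which unobstructed group was the control. The genes of the interferon-inducible PA28 cap, Psme1 (0.80 ± 0.07; 2.37e-07) and Psme2 (0.72 ± 0.13; 0.000229), rose, whereas Psme4, which encodes the PA200 activator, changed by -0.81 ± 0.16 (0.000606). In all, 2 of 5 activator and assembly genes rose and 2 fell, where 29.2% of all genes tested were called higher and 27.1% lower.

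Each immunoproteasome subunit replaces 1 constitutive subunit, so their ratio was formed within each library from counts per kilobase of exon. The height of a ratio depends on the merged exon lengths used, such as 3381 bases for Psmb8 and 899 for Psmb5. Its fold difference between groups does not. Psmb8:Psmb5 was 0.0501, 0.0255 and 0.116 in the healthy libraries and between 0.307 and 0.528 in WT UUO, a 7.86-fold difference of geometric means. Psmb9:Psmb6 lay between 0.0111 and 0.0310 in healthy and between 0.0648 and 0.0779 in WT UUO kidneys (4.50-fold). Psmb10:Psmb7 lay between 0.0772 and 0.231 in healthy and between 0.894 and 0.914 in WT UUO kidneys (6.28-fold). No ratio overlapped between these groups, but 3 against 3 libraries cannot give a two-sided exact permutation p below 0.10, the value found for each (adjusted p = 0.12 over the 12 ratio tests). Against contralateral kidneys the ratios were 7.31-fold, 3.89-fold and 4.92-fold higher, again without overlap and with an exact permutation p of 0.10. Over all 12 obstructed and 6 unobstructed libraries the ratios were 6.83-fold, 3.61-fold and 4.75-fold higher with obstruction. The two-sided exact permutation p was 5.39e-05 for each, the smallest that 12 against 6 allows (adjusted p = 0.000215). This test treats libraries of all genotypes and lines as exchangeable. All 6 unobstructed libraries were of the Twist line, whereas the Snail and Myc cKO libraries came from another strain mix. Their sex make-up differed as well. Some kidneys may also have shared an animal, so this p does not separate obstruction from these differences. The 9 knockout libraries did not lie wholly above or below the 3 WT UUO libraries for any ratio. The log2 differences were -0.20, -0.28 and -0.30 (exact permutation p = 0.459, 0.314 and 0.0636). For Psmb10:Psmb7 all Twist and Myc cKO libraries (0.520 to 0.838) lay below the WT UUO range. So did Snail cKO replicates 1 and 3 (0.695 and 0.808), while Snail cKO replicate 2 (0.970) lay above it.

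**Figure D2:**
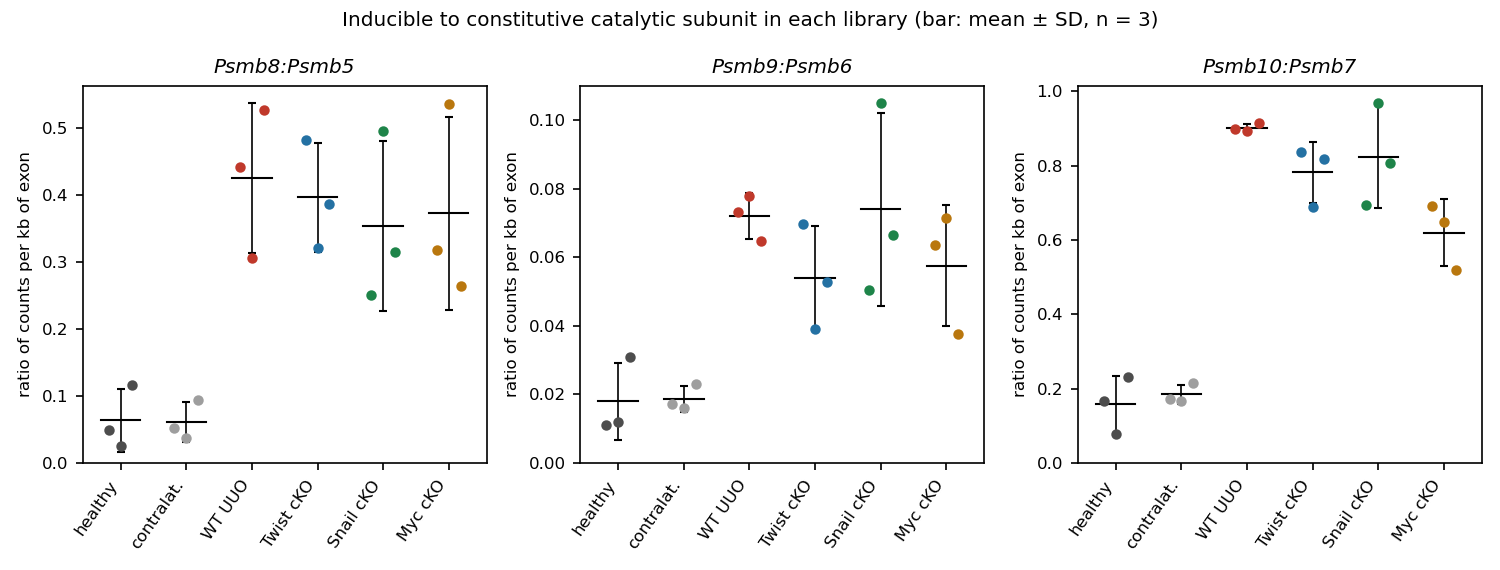
Ratio of immunoproteasome to constitutive catalytic subunit, in counts per kb of exon, for each library by group, on linear axes from 0; bars are the mean ± SD (n = 3). All 12 obstructed libraries lie above all 6 unobstructed ones in each panel, and the knockout libraries lie on both sides of the WT UUO range. For Psmb10:Psmb7 all knockout libraries but Snail cKO replicate 2 lie below that range.

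Other genes of the pathway were taken from lists chosen with earlier results of these data known. In WT UUO against healthy kidneys 29.2% of all genes tested were called higher and 27.1% lower, and the counts below stand beside these shares. Of 6 genes for peptide loading and trimming 2 rose in WT UUO against healthy kidneys: Tapbpl, the tapasin-related editor (0.78 ± 0.10; adjusted p = 1.12e-05), and Erap1, the aminopeptidase that trims peptides (0.45 ± 0.07; 9.32e-05). The chaperone gene Canx changed by -0.64 ± 0.13 (0.00056), and the median of the list was 0.07. Among 14 genes for regulators of class I transcription and interferon receptors 12 rose and 0 fell (median 1.002). The 3 with the smallest p were the interferon-gamma receptor chains Ifngr2 (1.796 ± 0.11; 2.52e-08) and Ifngr1 (1.89 ± 0.13; 5.6e-08) and the NF-kappaB subunit Rela (1.36 ± 0.12; 2.68e-07). Of 12 interferon-induced genes 7 rose and 0 fell (median 1.73), such as Oasl2 (1.79 ± 0.26), Irf7 (1.67 ± 0.26) and the chemokine Cxcl10 (2.47 ± 0.49). All 4 MHC class II genes rose (median 2.57), among them Cd74, the invariant chain (2.86 ± 0.37), H2-Eb1 (2.54 ± 0.40) and H2-Ab1 (2.61 ± 0.41). Of 14 class Ib and related heavy chains 8 rose, among them H2-Q4 (1.70 ± 0.17), H2-M3 (1.73 ± 0.22) and Mr1 (1.11 ± 0.17), and 1, H2-T22, fell (-0.54 ± 0.15; named after its value was seen).

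**Figure D3:**
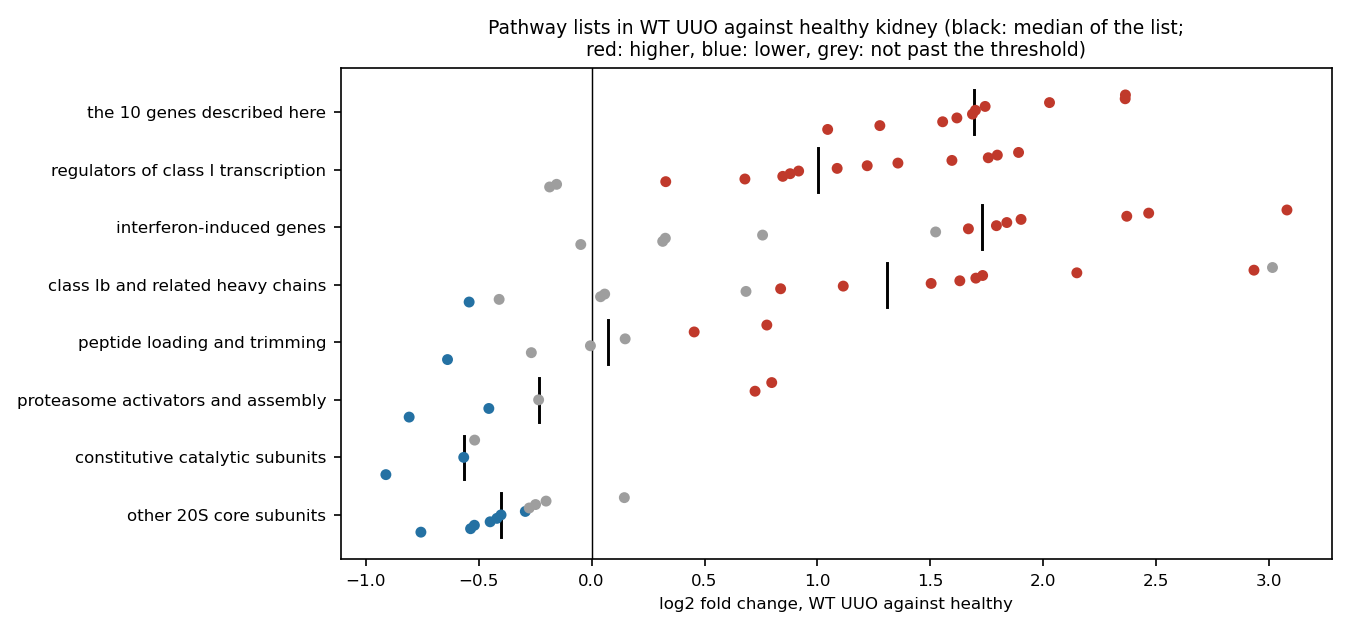
Log2 fold change of WT UUO against healthy kidney for each gene of 8 lists, 1 point per gene; the black line is the median of the list, and colour gives the call. The 10 genes described here lie between 1.05 and 2.36 and are all called higher, while the constitutive catalytic and other 20S core subunits lie mostly below 0.

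Markers of leukocytes, of fibroblasts and of tubule moved with obstruction in the same libraries. Calls are for WT UUO against healthy kidneys, where 29.2% of all genes tested were called higher and 27.1% lower. Ptprc, which encodes the leukocyte antigen CD45, stood at 10.8, 14.7 and 25.3 CPM in healthy, 15.5 to 16.6 CPM in contralateral and 75.5 to 107 CPM in WT UUO kidneys. With obstruction all 6 macrophage markers rose over the healthy level (median log2 difference 3.43), with summed levels of 64.9 to 92.1 CPM in healthy and 431 to 666 CPM in WT UUO kidneys. Of 8 T and NK cell markers 4 rose (sums of 2.08 to 4.95 against 7.26 to 12.4 CPM), of 4 dendritic cell markers 2, and of 4 B cell markers 3. All 4 proximal tubule markers fell (median -3.33), with sums of 9660 to 10800 CPM in healthy and 564 to 1340 CPM in WT UUO kidneys. All 4 fibroblast and myofibroblast markers rose (median 4.55), with sums of 117 to 176 CPM in healthy and 2580 to 5060 CPM in WT UUO kidneys. The 4 markers of the loop and distal tubule fell (median -2.32), of 4 endothelial markers 2 rose and 1 fell, and of 2 podocyte markers 0 were called. The natural killer cell marker Ncr1 and the B cell marker Ms4a1 were each at 0 in 1 library, and no other leukocyte marker was at 0. The part of these cells in the rise of the 10 genes was not tested.

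Contralateral and healthy kidneys were compared to see whether the side without a ligature changed. Of the 10 genes 1 was called, Tapbp, where 1.96% of all genes tested were called higher and 12.2% lay higher without overlap. Tapbp stood at 64.7, 67.2 and 64.0 CPM in contralateral kidneys, each above the highest healthy library (48.5 CPM), and rose by 0.52 ± 0.08 (log2, SE; adjusted p = 0.00714). The call was lost with Cre presence as a covariate (0.49, adjusted p = 0.0564) and with only these 2 groups in the fit (0.51, adjusted p = 0.163). Cre was absent from all 3 healthy mice and present in 2 of 3 contralateral ones.

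The other 9 genes did not pass in contralateral against healthy kidneys, with estimates from -0.35 ± 0.20 for B2m to 0.71 ± 0.40 for Nlrc5. B2m, at 140, 144 and 118 CPM, lay below all healthy libraries (adjusted p = 0.384), as 8.29% of genes did. Healthy replicate 3 was above the healthy mean for 10 of the 10 genes and had the highest Ptprc of the healthy kidneys. Without it 4 genes were called higher in contralateral kidneys: Tapbp, Tap1 (1.02, adjusted p = 0.0274), Tap2 (0.70, 0.0118) and Nlrc5 (1.48, 0.0274). Over all genes 724 were then called higher and 253 lower, against 413 and 63 with it. Without any other 1 of the 6 libraries between 38 and 236 were called higher, the fewest without healthy replicate 2.

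Against the contralateral kidney, all 10 genes rose in WT UUO kidneys, by a median of 1.56, where 27.5% of genes were called higher. The estimates ran from 0.75 ± 0.08 for Tapbp (adjusted p = 2.3e-06) to 2.38 ± 0.27 for Psmb8 (4.33e-06). The knockouts were set against the same 3 contralateral libraries, so these comparisons share their controls. Those controls carried no knockout, so each difference joins obstruction with genotype. For the Snail and Myc lines it also joins strain mix and sex make-up. Against WT UUO kidneys the Twist, Snail and Myc knockout medians were -0.33, -0.03 and -0.35, with 0 of the 10 called higher. All 10 genes were called higher than in contralateral kidneys for each obstructed knockout group. The medians were 1.12 for Twist cKO, 1.47 for Snail cKO and 1.33 for Myc cKO. Of all genes tested 21.5%, 23.7% and 22% were called higher. Psmb8 rose by 1.82 ± 0.27, 2.30 ± 0.27 and 1.86 ± 0.27 in the Twist, Snail and Myc cKO groups, and H2-K1 by 1.51 ± 0.25, 1.09 ± 0.24 and 1.58 ± 0.25. The weakest of these calls was Nlrc5 in Twist cKO UUO kidneys (1.03 ± 0.40, adjusted p = 0.0481), which was lost without any 1 of the 6 libraries (adjusted p from 0.0518 to 0.16). In Myc cKO UUO kidneys Nlrc5 (1.29 ± 0.40, adjusted p = 0.0163) was lost without contralateral replicate 1 (0.0619) or Myc cKO UUO replicate 1 (0.0695).

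Comparing Twist cKO with WT UUO kidneys asks what endothelial loss of Twist changed under obstruction. None of the 10 genes passed in edgeR's test, and 1 was under 0.05 unadjusted, where 5.28% of all genes were called and 22.9% were under 0.05 unadjusted. DESeq2 and limma voom also called 0 of the 10. The 1111 calls over all genes were 7 higher and 6 lower without WT UUO replicate 1, and 16 higher and 8 lower without Twist cKO UUO replicate 2. The estimates were all negative, with a median of -0.33 against -0.01 over all genes. Psmb8 stood at 17.6, 12.5 and 13.6 CPM in Twist cKO UUO kidneys, below each WT UUO library, and its estimate was -0.56 ± 0.26 (95% interval -1.11 to -0.01, adjusted p = 0.21). Psmb10 also lay below without overlap (-0.29 ± 0.16), which 17% of genes did. For the heavy chains the intervals ran from -0.59 to 0.44 (H2-K1) and from -0.76 to 0.06 (H2-D1), and for Tapbp from -0.18 to 0.16. Of the macrophage markers 3 of 6 fell in this comparison (median -0.80, sums of 316 to 376 CPM in Twist cKO UUO kidneys), and 2 of 4 fibroblast and myofibroblast markers fell (median -1.63, sums of 1160 to 1420 CPM against 2580 to 5060 CPM in WT UUO). Of the other markers 2 of 4 fell for endothelium (median -0.46), and 2 of 4 rose for proximal tubule (1.24) and 1 of 4 for loop and distal tubule (1.25). The part of these cells in the lower estimates was not tested.

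Snail cKO UUO kidneys differed from WT UUO kidneys in none of the 10 genes by edgeR, DESeq2 or limma voom, with 0 under 0.05 unadjusted, where 0.299% of all genes were called and 14.9% were under 0.05 unadjusted. The median estimate was -0.03. The lowest was H2-K1, at 158, 219 and 155 CPM (-0.50 ± 0.24, 95% interval -1.01 to 0.01, adjusted p = 0.349). Replicate 2 of this group was the highest of the 3 for 8 of the 10 genes, for instance Psmb9 at 5.57, 11.7 and 7.29 CPM and B2m at 326, 475 and 299 CPM. It also had the highest Ptprc (93.1 CPM, against 56.8 and 61.7) and T and NK cell marker sum (18.3 CPM, against 5.16 and 6.61). The sums for dendritic cells (38.5 CPM), macrophages (454 CPM) and B cells (3.24 CPM) were likewise highest there.

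In Myc cKO UUO kidneys 1 of the 10 genes, Tapbp, fell against WT UUO, where 6.91% of all genes were called lower and 16.6% lay lower without overlap. Those 1455 genes called lower were 509 without WT UUO replicate 1, 811 without WT UUO replicate 2, 815 without Myc cKO UUO replicate 2, 663 without Myc cKO UUO replicate 3, and 4 with only these 2 groups in the fit. Tapbp stood at 78.4, 93.8 and 90.6 CPM, below each WT UUO library (107 to 112 CPM), and fell by 0.33 ± 0.08 (log2, SE; adjusted p = 0.0181), a fold of 0.797. The call was lost without WT UUO replicate 1 (adjusted p = 0.0784), WT UUO replicate 2 (0.0713) or Myc cKO UUO replicate 1 (0.0503), and with only these 2 groups in the fit (0.117). In total 6 of the 10 genes lay lower without overlap, among them Tap2, at 14.5, 16.1 and 14.2 CPM (-0.46 ± 0.17, adjusted p = 0.0846). Tap2 passed by DESeq2 (-0.45, adjusted p = 0.0442) and by limma voom (-0.45, 0.0288). B2m went the other way, at 420, 499 and 463 CPM, above each WT UUO library, which 15.3% of genes did (0.39 ± 0.20, 95% interval -0.03 to 0.81, adjusted p = 0.215).

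Of the 14 regulators, 4 fell in Myc cKO UUO against WT UUO kidneys. Rela stood at 24.5, 25.5 and 20.03 CPM, against 34.3, 37.0 and 37.5 CPM in WT UUO (-0.64 ± 0.11, adjusted p = 0.00454), and held without any 1 of the 6 libraries but not with only these 2 groups in the fit (-0.62, adjusted p = 0.0787). Ifnar1 (-0.32 ± 0.08, 0.0245), Nfkb1 (-0.50 ± 0.15, 0.0411) and Ifngr2 (-0.36 ± 0.11, 0.0419) were each lost without Myc cKO UUO replicate 3 (adjusted p = 0.1, 0.117 and 0.177) and without any 1 WT UUO library. Of the macrophage markers 2 of 6 fell in this comparison (median -0.60), and 3 of 4 fibroblast and myofibroblast markers fell (median -1.52, sums of 434 to 2150 CPM in Myc cKO and 2580 to 5060 CPM in WT UUO kidneys). Of 4 endothelial markers 2 fell (median -0.23), of 4 proximal tubule markers 2 rose (1.32), and of 4 loop and distal tubule markers 1 rose. The part of these cells in the lower Tapbp and regulator values was not tested.

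Taking the 3 knockout groups as 1 mean against WT UUO, 0 of the 10 genes passed by edgeR, DESeq2 and limma voom and 0 were under 0.05 unadjusted in edgeR's test, where 10.1% of all genes were called and 25.6% were under 0.05 unadjusted. The calls over all genes were 922 higher and 1207 lower. They came to 16 and 48 without WT UUO replicate 1, 466 and 456 without WT UUO replicate 2, and 652 and 754 without Snail cKO UUO replicate 1.

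**Figure D4:**
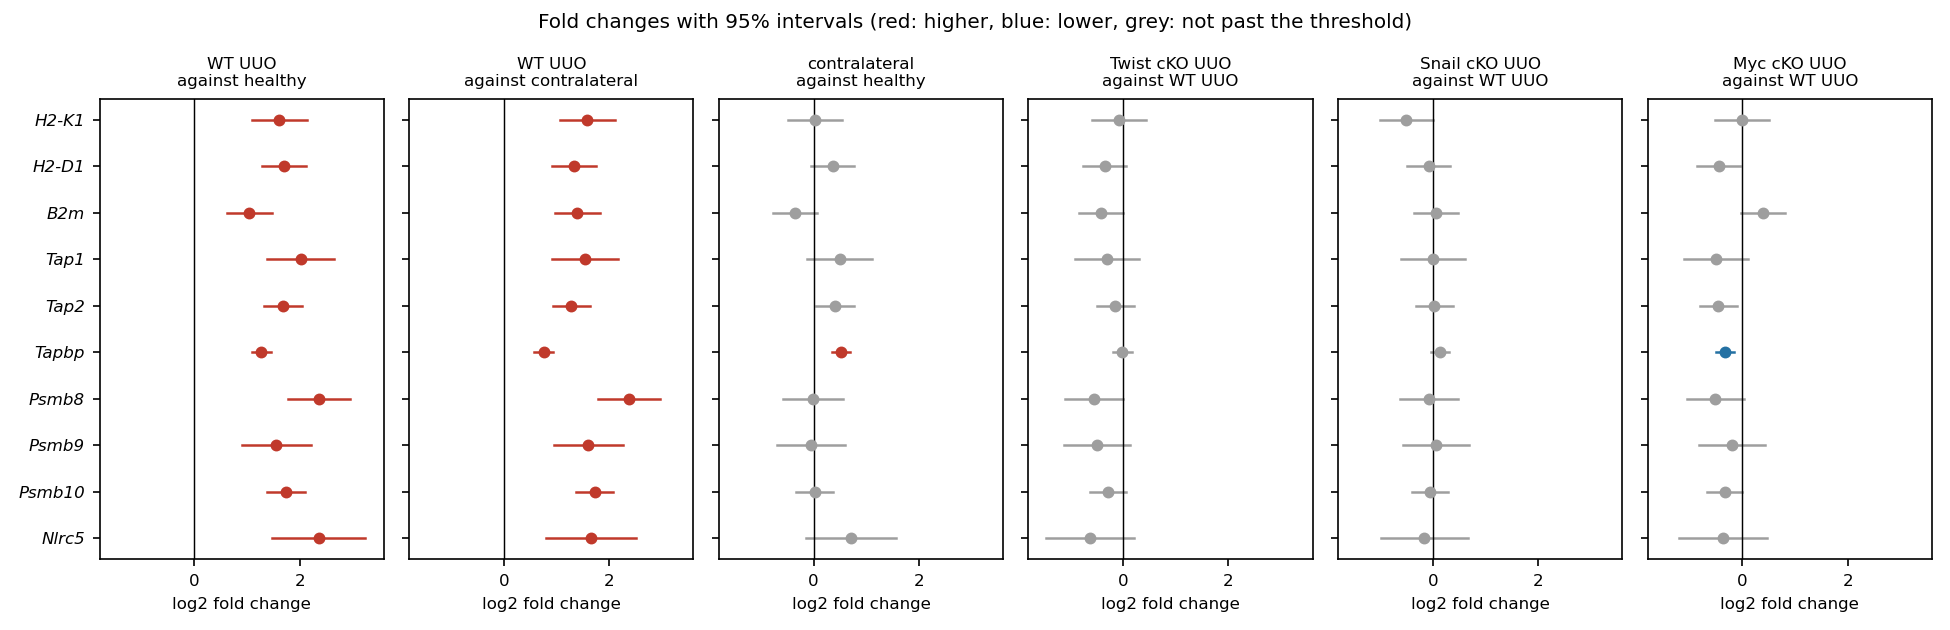
Log2 fold change with its 95% interval for the 10 genes in 6 comparisons from 1 edgeR fit; the vertical line is no change and colour gives the call. All 10 genes lie to the right in both comparisons of WT UUO with unobstructed kidney, and the knockout comparisons hold 1 call, Tapbp in Myc cKO UUO.

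The knockouts were also compared with each other. Twist cKO and Snail cKO UUO kidneys differed in 0 of the 10 genes by edgeR, where 0.171% of all genes were called. At an unadjusted p under 0.05 there was 1, B2m (-0.48 ± 0.20, Twist cKO minus Snail cKO), as 6.52% of genes were. B2m was higher in Myc cKO than in Twist cKO UUO kidneys, where it stood at 329, 230 and 232 CPM (0.81 ± 0.20, adjusted p = 0.0406), and Tapbp was lower (-0.32 ± 0.08, 0.0466); 0.442% and 2.55% of genes were called higher and lower. Without Twist cKO replicate 2 or 3 or any 1 Myc cKO library neither call held, and without Twist cKO replicate 1 that of B2m did. Tapbp was lower in Myc cKO than in Snail cKO UUO kidneys, where it stood at 115, 119 and 130 CPM (-0.47 ± 0.08, adjusted p = 0.0102; 1.92% of genes called lower), and lost the call without Snail cKO UUO replicate 3 (0.0649).

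The balance of the 2 heavy chains differed between groups and between libraries of 1 group. The ratio of H2-K1 to H2-D1 CPM was 0.876, 0.920 and 0.922 in WT UUO kidneys and lower, at 0.647, 0.688 and 0.684, with Snail cKO. After Twist cKO it was 1.16, 0.955 and 1.15, and after Myc cKO 1.30, 1.03 and 1.37, so that replicate 2 stood lowest in both. Healthy libraries ran from 0.680 to 1.21 and contralateral ones from 0.680 to 0.869. The sum of both genes lay at 528 ± 93.4 CPM in WT UUO kidneys, 455 ± 94.8 with Twist, 440 ± 83.6 with Snail and 453 ± 42.8 with Myc cKO (SD, n = 3). Tested as 1 feature, the sum rose by 1.66 ± 0.21 in WT UUO against healthy kidneys (adjusted p = 8.48e-06). Against WT UUO it differed by -0.21 ± 0.20, -0.26 ± 0.20 and -0.22 ± 0.20 in Twist, Snail and Myc cKO UUO kidneys (adjusted p = 0.583, 0.596 and 0.524).

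H2-Q10, a class Ib heavy chain gene of the same region, differed between libraries of 1 group by far more than counting error. WT UUO kidneys had 606, 532 and 375 counts of it and Snail cKO UUO kidneys 860, 798 and 896. It had 21, 315 and 19 counts with Twist cKO, and 16, 343 and 24 with Myc cKO. H2-Q1 followed the same pattern, with 0, 108 and 2 counts under Twist cKO and 2, 133 and 1 under Myc cKO. Among the 12 obstructed libraries, the 4 with fewest H2-Q10 counts were those with the highest ratios of H2-K1 to H2-D1 (1.15 to 1.37). Healthy replicate 3 had 16 counts of H2-Q10 and 0 of H2-Q1, with a ratio of 0.976. The H2 haplotype of each mouse is not in the labels, all lines were strain mixes, and its part in these counts was not tested.

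**Figure D5:**
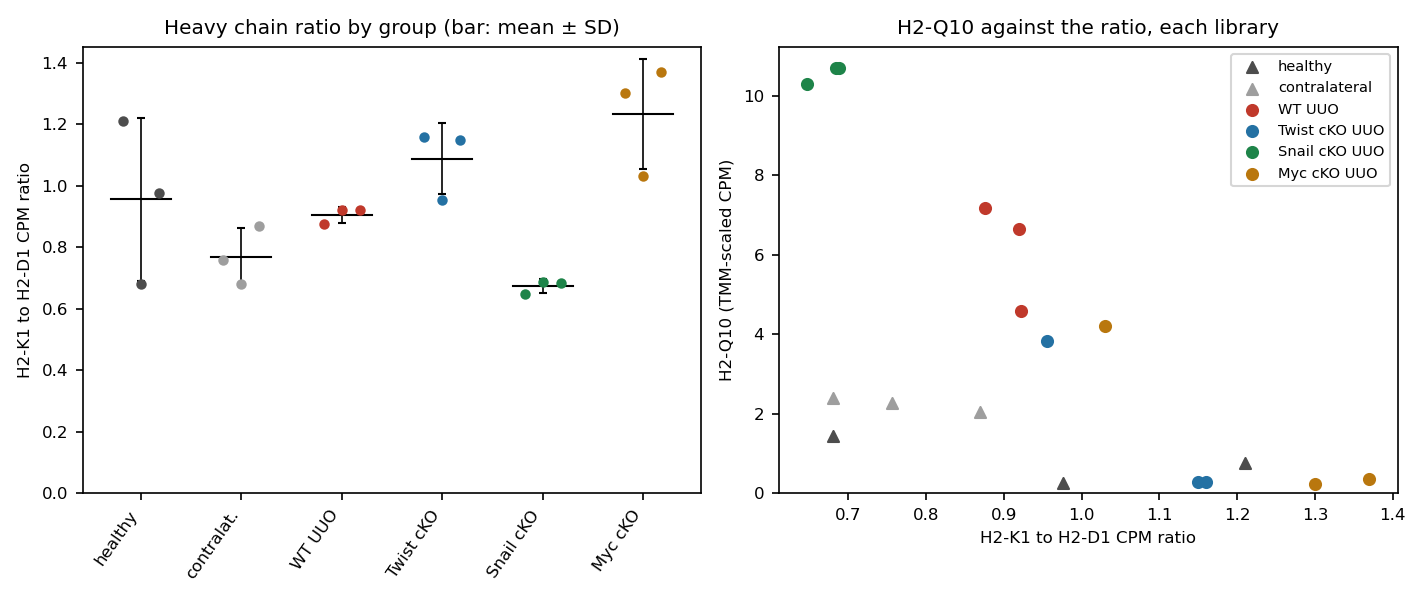
Left, ratio of H2-K1 to H2-D1 CPM in each library by group (bar, mean ± SD, n = 3); right, H2-Q10 in TMM-scaled CPM against that ratio, 1 point per library, circles obstructed and triangles unobstructed. The 3 Snail cKO UUO libraries sit at ratios of 0.647 to 0.688 with 10.3 to 10.7 CPM of H2-Q10, and 2 Twist cKO and 2 Myc cKO libraries sit at 1.15 to 1.37 with 0.222 to 0.358 CPM.

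Sequence shared between heavy chain genes limits how their reads can be assigned. Of all 75-base windows of H2-K1 transcripts 3.1% occurred in a transcript of another gene, mostly H2-Q10 (2.38%), and of H2-D1 5.4%, mostly H2-Q1 (4.25%). For Tapbp the share was 1.1% and for the other 7 genes 0. These shares are those of the GENCODE M21 reference transcripts, at a window length set for this search. Alleles of the strains in the mixes were not compared. Tapbp shares 3422 bases of its locus with Zbtb22 on the same strand. B2m lies within Patl2 on the opposite strand, and the strand setting of the counting is not given in the sources used here.

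Across the 18 libraries, the 10 genes followed each other, with Pearson's r of each with the mean of the other 9, on standardised log2 CPM, between 0.852 (B2m) and 0.989 (Psmb8). The genes outside the set with the most similar level were Fgd2 (r = 0.984), Lpcat2 (0.983), Unc93b1, Arhgap30, Laptm5 and Pld4 (0.982 each), Nckap1l and Aif1 (0.981 each). After the group means were removed, r of each gene with the other 9 lay between 0.398 (Tapbp) and 0.922 (Psmb8). The closest genes were then the interferon-inducible GTPase genes Tgtp1 (0.927), Gbp6 (0.908) and Iigp1 (0.900), followed by Fgd2 (0.869), Tbxas1 (0.860), the granzyme gene Gzmb (0.857), Mis18a (0.856) and Alox5ap (0.853). These values describe the libraries, which share depth and cell makeup. The genes outside the set were picked as the highest of all genes tested, with predicted, clone-named and pseudogene symbols left out.

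Within groups, the mean deviation of the 10 genes from their group mean was highest in healthy replicate 3 (0.47, log2) and in replicate 2 of Snail cKO UUO (0.29) and replicate 1 of Twist cKO UUO (0.26). It was lowest in healthy replicate 2 (-0.33). The T and NK cell marker sum was also the highest of its group in those 3 libraries, at 4.95, 18.3 and 17 CPM. So were the dendritic cell marker sum (14.2, 38.5 and 31.2 CPM) and Ptprc (25.3, 93.1 and 70.9 CPM). The macrophage sum was not the highest in Twist cKO UUO replicate 1 (343 CPM, against 376 in replicate 2). Nor was the B cell sum in healthy replicate 3 (0.791 CPM, against 1.07 in replicate 2). In Myc cKO UUO kidneys, replicate 3 had the lowest Ptprc of all obstructed libraries (37.7 CPM) and the highest H2-K1 of its group (290 CPM). There the sign of the deviation differed between the 10 genes, with 4 of 10 above the group mean.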

How the data were processed

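RNA was measured in 18 kidneys. The submitters' processing notes name bcl2fastq 1.8.4, HTSeq, DESeq2 and mm10. Which aligner, annotation and strand mode served was not given in the sources used here. Deposited values are whole-number read counts per gene, not scaled. Of the 24 columns, 18 matched a sample's labels and 6 were not used. Libraries held 52637555 to 91340782 counts.

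From these counts, edgeR 4.0.16 in R 4.3.3 (filterByExpr, TMM, robust quasi-likelihood test, 1 fit over 6 groups, 12 residual degrees of freedom) gave log2 fold changes with SE and 95% intervals, adjusted by Benjamini-Hochberg over 21050 genes. CPM, and CPM per kilobase of GENCODE M21 exon, describe levels. Subunit ratios were compared by two-sided exact permutation over libraries. Alternatives were limma voom 3.58.1, DESeq2 1.42.0, RLE scaling, other count filters, a 2-fold minimum, Cre and sex covariates, fewer groups and each library left out. After the data were seen, 4 were added: only 3-strain-mix libraries, 2 libraries left out together (WT UUO 1 and Myc cKO UUO 3), summed heavy chains, and a replicate block. For the block, the contralateral and WT UUO libraries were matched by genotype label and by Xist against Ddx3y, which joined equal replicate numbers. Deviations of matched libraries from their group means correlated over genes at r = 0.194, 0.355 and 0.272 (replicates 1 to 3). Beside the 10 genes, the 3 genes of each list with the smallest p in WT UUO against healthy and the 8 with the highest Pearson correlation with the mean of the 10 are named. Predicted, clone-named and pseudogene symbols were left out of that correlation ranking. Others named, such as H2-Q10, H2-Q1, H2-Q7, Ifnar1 and Nfkb1, were chosen after their values were seen. The 10 genes and all lists were chosen with earlier results of these data known. Replicates are numbered in accession order.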

Additional observations from a re-analysis of the deposited data

Results flagged for a closer look

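The knockouts differed from each other in 7 results on the genes described here or on the lists beside them, each by a direct edgeR comparison of the 2 knockout groups over all genes. B2m was higher in Myc cKO than in Twist cKO UUO kidneys by 0.8051 on the log2 scale (SE 0.1976, adjusted p = 0.0406; 0.442% of genes called higher). The B2m call held without Twist cKO replicate 1 but not without any other 1 of the 6 libraries. It was also lost with only these 2 groups in the fit (adjusted p = 0.112). Tapbp was lower in Myc cKO than in Twist cKO UUO kidneys (-0.3151, adjusted p = 0.0466; 2.55% of genes called lower). That call was lost without any 1 of the 6 libraries and with only these 2 groups in the fit (adjusted p = 0.217). Tapbp was also lower than in Snail cKO UUO kidneys (-0.4705, adjusted p = 0.0102; 1.92% of genes called lower). There the call was lost without Snail cKO replicate 3 (0.0649) and with only these 2 groups in the fit (0.156).

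Rela, an NF-kappaB subunit, was lower in Myc cKO than in Twist cKO UUO kidneys (-0.6529, adjusted p = 0.00853), a call that held without any 1 of the 6 libraries (highest adjusted p = 0.0415) but was lost with only these 2 groups in the fit (-0.6566, adjusted p = 0.0789). Against Snail cKO UUO kidneys Rela differed by -0.5683 (adjusted p = 0.0195), and the adjusted p reached 0.11 when single libraries were left out and was 0.146 with only these 2 groups in the fit.

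The class Ib gene H2-Q4 ranged from 17.1 to 25.4 CPM in Myc cKO and from 34.0 to 41.4 CPM in Snail cKO UUO kidneys (-0.769, adjusted p = 0.0281, up to 0.0905 with a library left out). H2-Q7 went the other way, with 6.83 to 9.91 CPM in Myc cKO and 2.25 to 3.56 CPM in Snail cKO UUO kidneys (1.623, adjusted p = 0.0281, up to 0.148). Neither call held with only these 2 groups in the fit (adjusted p = 0.156 for H2-Q4 and 0.111 for H2-Q7). Both groups came from the same mix of strains. The Twist line came from another mix, so that differences from Twist cKO UUO kidneys cannot be told apart from strain. Sex make-up also differed there. The H2 haplotype of the mice is not in the labels, and its part in the H2-Q4 and H2-Q7 values was not tested.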

How the results depend on the processing

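Of 2290 refits of single genes among the 10, 2144 kept direction and side of the threshold, 74 lost a call (33 of them under a 2-fold minimum), 5 gained one and 67 changed sign, the last all for estimates past the threshold in neither fit. The 10 calls in WT UUO against healthy kidneys held in 178 of 180 refits and were lost in 2. The ratios over 12 against 6 libraries stayed past the threshold and those over 9 against 3 short of it, whereas tests of 3 against 3 libraries cannot pass. The cause of the changes below was not tested.

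Under the 2-fold minimum, which asks for a larger change, the number of the 10 genes called was 5 for WT, 2 for Twist cKO, 4 for Snail cKO and 3 for Myc cKO UUO against contralateral kidneys. It was 0 in contralateral against healthy, and 0 in Myc cKO against WT, Twist cKO and Snail cKO UUO kidneys. With only the groups compared in the fit, 0 were called in those same 4 comparisons. With the Cre covariate, 0 were called in contralateral against healthy kidneys. In Myc cKO against WT UUO kidneys, limma voom and DESeq2 called 2, and leaving out WT UUO library 1 with Myc cKO UUO library 3 called 0. In Myc cKO against Twist cKO UUO kidneys the count was 1 with RLE scaling, no filter, no mitochondrial ribosomal RNA, and the Cre or the sex covariate, and 0 with those 2 libraries left out. With 1 library left out, the count ran from 1 to 4 in contralateral against healthy, and from 0 to 1 in Myc cKO against WT, against Twist cKO and against Snail cKO UUO kidneys.

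Estimates near 0 changed sign. For contralateral against healthy kidneys these were H2-K1 (-0.1189, Cre covariate) and Psmb8 (0.02029 with the sex covariate, 0.03526 by voom). For Snail cKO against WT UUO they were Tap1 (-0.006599 with the strict filter, -0.03096 by voom), B2m (-0.05016) and Tap2 (-0.01324) with the Cre covariate, Psmb9 (-0.01535, voom) and H2-D1 (0.01995, 2 libraries out). For Twist cKO against WT UUO it was Tapbp (0.006183, 3-strain mix). For Myc cKO against WT UUO it was H2-K1, at 0.001219 with RLE scaling, 0.0008381 with the strict filter, 0.01059 without mitochondrial ribosomal RNA, 0.064 with the sex covariate, 0.0008222 by voom, 0.00122 by DESeq2 and 0.007427 with only these groups. With the 2 libraries out, Myc cKO against Twist cKO UUO gave -0.05167 for H2-K1 and 0.01976 for Psmb10. The mean of the 3 knockouts against WT UUO gave -0.09845 for B2m with the Cre covariate.

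Leaving out 1 library, sign changes spanned the following ranges. Contralateral against healthy: H2-K1 -0.2241 to 0.2609, Psmb8 -0.2427 to 0.4057, Psmb10 -0.1787 to 0.1519 and Psmb9 -0.2493 to 0.3225. Twist cKO against WT UUO: H2-K1 -0.2777 to 0.06973 and Tapbp -0.02751 to 0.02244. Snail cKO against WT UUO: Tap1 -0.1746 to 0.203, B2m -0.166 to 0.1962, Tap2 -0.031 to 0.07405, Psmb9 -0.2795 to 0.2836, H2-D1 -0.2281 to 0.02546, Nlrc5 -0.3778 to 0.1004, Psmb8 -0.324 to 0.06772 and Psmb10 -0.1683 to 0.0498. Myc cKO against WT UUO: H2-K1 -0.1266 to 0.09539. Myc cKO against Twist cKO UUO: H2-D1 -0.1667 to 0.06589, Tap1 -0.3177 to 0.05232, Psmb10 -0.1154 to 0.01962, H2-K1 -0.07574 to 0.29 and Psmb8 -0.05771 to 0.2139. Myc cKO against Snail cKO UUO: Psmb9 -0.4658 to 0.0974 and Nlrc5 -0.4224 to 0.02653. Mean of the 3 knockouts against WT UUO: B2m -0.1202 to 0.1528.

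Over all genes, DESeq2 called more than edgeR: 1023 higher and 310 lower against 413 and 63 in contralateral against healthy, 1320 and 1131 against 625 and 486 in Twist cKO against WT UUO, and 434 and 357 against 34 and 29 in Snail cKO against WT UUO kidneys. By limma voom the last 2 were 709 and 763, and 67 and 114. With the replicate block in WT UUO against contralateral kidneys, 10 of the 10 genes were called higher, as without it, and 5729 and 5414 of all genes were called higher and lower against 5799 and 5482. The labels do not link kidneys to animals. The other comparisons hold no pairs by design. Knockout kidneys (+ FF) differed in genotype label from the contralateral and WT UUO ones, and healthy kidneys came from mice without obstruction. The number of libraries, 3 a group, limits these tests, and the 95% intervals give the differences that the data allow.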
